A study of Mus musculus with 8 samples.

Results

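The mitochondrial carriers encoded by genes named Slc25a followed by a number were examined in ventricle of mice heterozygous for a deletion in Pkp2 and of wild-type mice. The members were every row of the deposited count table whose symbol has that form, which gave 47 genes of 38293 rows, 36345 of them with a symbol. All 47 are annotated as protein-coding, and they lie on 19 chromosomes. The rule used the gene name alone and no measured value, but the family was chosen with earlier results of these data known. HET denotes mice heterozygous for the Pkp2 c.1755delA allele (4 samples) and WT denotes wild-type mice (4 samples), both 8 weeks of age and neither treated with any agent named in the labels. The sources write the allele in more than one way, and the name in the series title is used here. Each sample was RNA of mixed left and right ventricle, so all cell types of the tissue contribute. Whether each sample is a separate animal is not stated in the labels, so a p-value here reflects only how these samples vary. Pkp2 encodes plakophilin-2, which is part of the desmosomes that hold heart muscle cells together.

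Carriers of the SLC25 family are small proteins of the inner mitochondrial membrane that exchange metabolites between the cytosol and the matrix. In heart muscle the ADP/ATP carriers export newly made ATP in exchange for ADP, the phosphate carrier brings in the phosphate for its synthesis, and the carnitine-acylcarnitine carrier brings in fatty acids for oxidation. Other members carry aspartate, glutamate, oxoglutarate, nucleotides, cofactors, iron and glutathione, and some have no firmly assigned substrate.

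HET libraries held 32397302 to 38611008 counts and WT libraries 38510257 to 41234883. Pkp2 had 99.2, 88.2, 96.0 and 106 CPM (counts scaled to a common library size by edgeR) in the HET libraries, against 169, 168, 148 and 166 CPM in the WT libraries. It passed the test, with a log2 fold change of -0.74 for HET over WT and an adjusted p of 0.00376. Markers of heart muscle were abundant in all 8 libraries, with summed levels of 63697 to 66115 CPM over 7 genes in HET and 59163 to 63687 CPM in WT. Of the atrial markers Myl7 and Sln were at or below 0.112 CPM in every library, while Nppa, which ventricle also expresses, had 218 to 461 CPM in HET and 269 to 352 CPM in WT. WT replicate 3 stood apart: mitochondrially encoded genes took 14.7% of its counts, against 17.1% to 19.1% in the other 7 libraries, and it had the highest macrophage and erythroid marker levels. Its effect is given beside some of the members it moved.

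The promoters of 4 carriers are shown because they belong to the most abundant ADP/ATP carrier, its paralog, the phosphate carrier and the carnitine-acylcarnitine carrier, the members around which the account of levels turns. The windows are RefSeq sequences of GRCm38.p6, 300 bases each, from 250 bases before to 50 bases after the start that RefSeq gives, which can differ from the GENCODE start used for gene positions here, written 5′ to 3′ on the strand of the gene. They lie at chr8:46211013-46211312 (minus strand, Slc25a4), chrX:36795347-36795646 (plus strand, Slc25a5), chr10:91123918-91124217 (minus strand, Slc25a3) and chr9:108661886-108662185 (plus strand, Slc25a20). Capitals mark letters that match, on either strand, the GC box GGGCGG, the CCAAT box CCAAT or the ETS-type site CCGGAAG that GABP can bind.
Slc25a4: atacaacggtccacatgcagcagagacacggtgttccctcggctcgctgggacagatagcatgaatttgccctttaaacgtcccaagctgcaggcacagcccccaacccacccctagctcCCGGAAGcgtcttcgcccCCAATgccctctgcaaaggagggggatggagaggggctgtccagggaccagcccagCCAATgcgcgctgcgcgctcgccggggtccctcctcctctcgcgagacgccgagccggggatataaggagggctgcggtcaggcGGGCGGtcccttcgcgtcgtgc
Slc25a5: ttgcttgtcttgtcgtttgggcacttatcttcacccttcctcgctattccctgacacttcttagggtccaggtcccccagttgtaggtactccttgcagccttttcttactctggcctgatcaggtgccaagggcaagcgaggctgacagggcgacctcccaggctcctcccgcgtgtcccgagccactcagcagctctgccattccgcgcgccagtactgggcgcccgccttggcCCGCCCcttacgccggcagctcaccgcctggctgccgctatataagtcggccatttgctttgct
Slc25a3: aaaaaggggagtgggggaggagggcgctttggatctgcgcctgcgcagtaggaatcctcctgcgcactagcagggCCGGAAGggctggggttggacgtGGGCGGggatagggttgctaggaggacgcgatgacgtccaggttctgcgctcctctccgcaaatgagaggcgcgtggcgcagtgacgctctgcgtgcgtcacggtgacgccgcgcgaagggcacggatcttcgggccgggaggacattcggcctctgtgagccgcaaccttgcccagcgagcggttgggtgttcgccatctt
Slc25a20: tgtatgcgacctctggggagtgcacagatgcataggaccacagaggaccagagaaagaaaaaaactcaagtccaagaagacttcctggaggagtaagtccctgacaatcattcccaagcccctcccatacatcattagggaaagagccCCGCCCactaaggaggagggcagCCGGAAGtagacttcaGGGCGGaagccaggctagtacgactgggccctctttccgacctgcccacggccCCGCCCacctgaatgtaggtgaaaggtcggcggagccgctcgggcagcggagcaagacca

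The Slc25a4 window held 1 GC box, 2 CCAAT boxes and 1 CCGGAAG. The Slc25a5 window held 1 GC box and neither of the other motifs, the Slc25a3 window held 1 GC box and 1 CCGGAAG, and the Slc25a20 window held 3 GC boxes and 1 CCGGAAG. None of the 4 windows held the letters TATAAA, the ERR element TCAAGGTCA, the NRF1 core GCATGCGC or CACGTG. Windows were found for 36 of the 47 members, 46 windows in all because some genes have several starts. The GC box was present in 38 of the 46 (82.6%), against 35.7% of all 32851 windows of the table. Those windows were not selected by gene type or by level in ventricle, so the shares are not a contrast with genes like the members. CCAAT was present in 22 (47.8%, against 37.4%), CCGGAAG in 7 (15.2%, against 8.9%), CACGTG in 8 (17.4%, against 7.2%), GCATGCGC in 2 (4.3%, against 2.7%), TATAAA in 2 (4.3%, against 13.6%) and TCAAGGTCA in 0, against 0.4%. Both strands were searched and matches to different motifs may overlap. These are matches of letters in a fixed window and say nothing of binding in these samples.

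The family was dominated by a single member. Slc25a4, the ADP/ATP carrier of heart and skeletal muscle, reached 2377 ± 78.8 CPM per kb of exon in HET and 2302 ± 141 CPM per kb in WT (SD, n = 4 each), and ranked 14th of all genes in the table by this measure. Dividing by exon length lets levels of different genes be set side by side, but the length rests on annotation. The union of exons was 5550 bases for Slc25a3, whose longest annotated transcript, of 4039 bases, has 2 exons. For Slc25a20 it was 4844 bases, and the longest transcript, of 2751 bases, has 1 exon. Which transcripts were present was not measured, so the order of members holds for these lengths only. Slc25a4 alone held 55.5% to 57.5% of the counts of the 47 members in every library, and the members together held 0.943% to 0.993% of all counts in HET and 0.944% to 1.01% in WT. The phosphate carrier Slc25a3 followed at 294 ± 5.19 CPM per kb in HET and 292 ± 10.7 CPM per kb in WT, close to the oxoglutarate-malate carrier Slc25a11 at 272 ± 8.62 CPM per kb in HET and 268 ± 12.1 CPM per kb in WT. Slc25a5, the ADP/ATP carrier of most other tissues, followed with 132 ± 5.89 CPM per kb in HET and 131 ± 10.4 CPM per kb in WT.

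Below these, Slc25a34, a carrier with no firmly assigned substrate, averaged 90.9 CPM per kb over the 8 libraries. Slc25a39, which carries glutathione, averaged 52.3 CPM per kb. The aspartate-glutamate carriers Slc25a13 and Slc25a12 averaged 44.6 and 36.6 CPM per kb, with Slc25a20, the carnitine-acylcarnitine carrier, between them at 38.8 CPM per kb. Slc25a42, a coenzyme A carrier, was the 10th member at 19.4 CPM per kb. Of the 9 steps between these 10 members, the ranges over the 8 libraries did not touch for 5: below Slc25a4, Slc25a11, Slc25a5, Slc25a34 and Slc25a12. Slc25a3 and Slc25a11 overlapped in range but stood in the same order in all 8 libraries, as did Slc25a39 over Slc25a13 and Slc25a13 over Slc25a20. Slc25a20 exceeded Slc25a12 in 7 of the 8 libraries. The same 10 members in the same order were found in the HET libraries alone and in the WT libraries alone. With the longest transcript as the length in place of all exons, the same 10 members led and 8 kept their rank. Both lengths come from the same annotation.

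By band of mean level, 1 member stood above 1000 CPM per kb, 3 stood at 100 to 1000, 12 at 10 to 100, 20 at 1 to 10 and 11 under 1 CPM per kb. Over the whole order, 13 of the 46 neighbouring pairs had ranges that did not touch, so most neighbours in the lower part of the order cannot be ranked beyond their spread. Slc25a46, Slc25a51 and Slc25a33, at ranks 12, 13 and 14 of the order, averaged 13.0, 12.8 and 12.6 CPM per kb. Slc25a46 acts at the outer membrane, Slc25a51 carries NAD+ and Slc25a33 pyrimidine nucleotides.

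**Figure D1:**
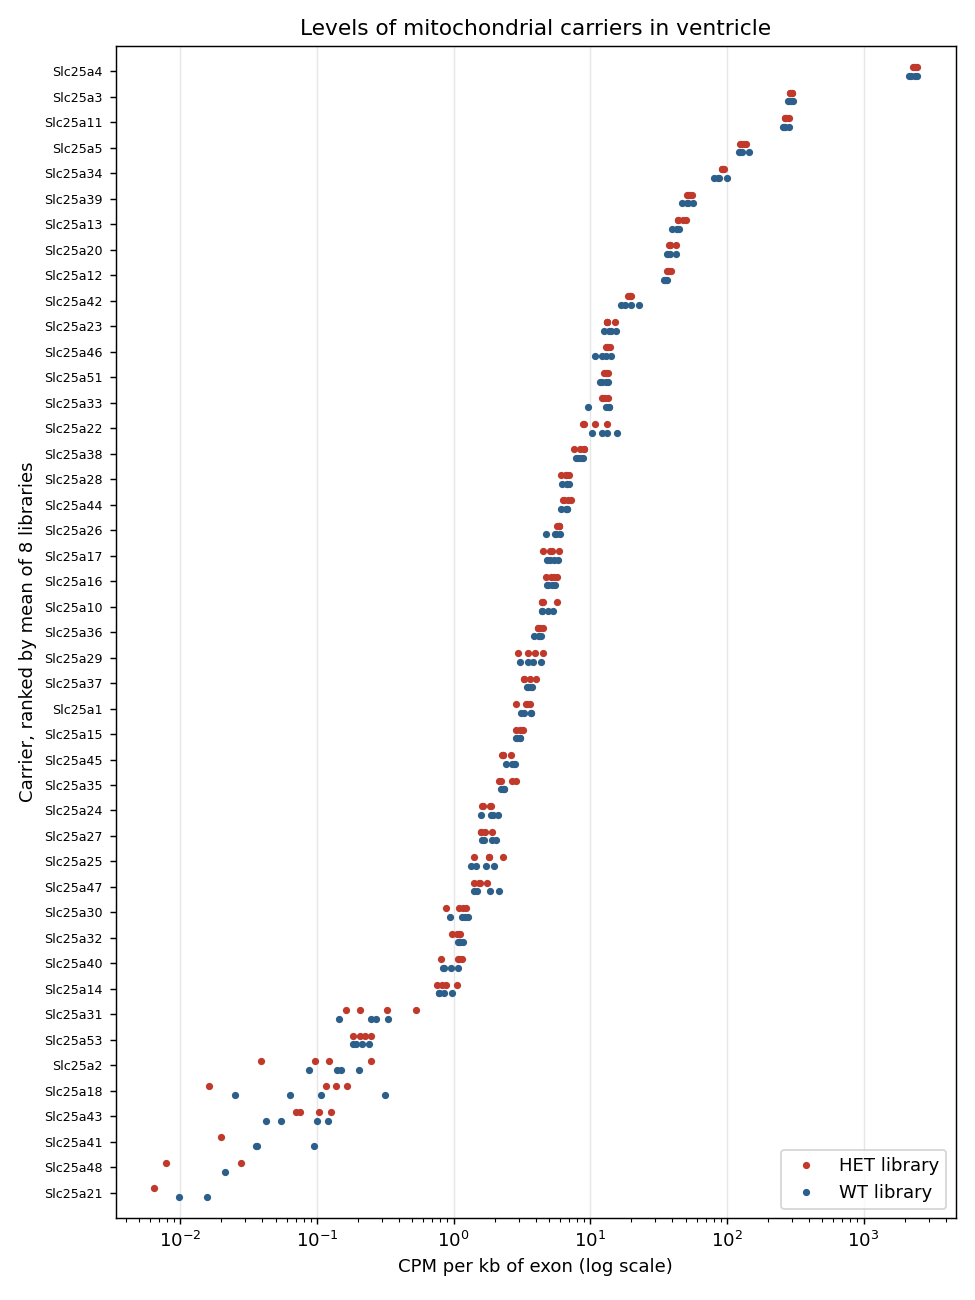
Level of 45 carriers in each library, as CPM per kb of exon on a log scale, with HET libraries (red) above WT libraries (blue) in each row and carriers ranked by the mean of the 8 libraries. Values of 0 and Slc25a54, which had no count, cannot be drawn on a log axis. Slc25a4 stands at 2138 CPM per kb or more in every library and the groups lie on top of each other for nearly all carriers.

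Several carriers were at or near 0 in ventricle. Slc25a54 had 0 counts in all 8 libraries, which allows up to 0.0926 CPM in the shallowest library and covers counting error only. Slc25a48 had 1, 3, 0 and 0 counts in HET and 3, 0, 0 and 0 counts in WT. Slc25a21, the oxoadipate carrier, had 0, 1, 0 and 0 counts in HET and 2, 0, 0 and 3 counts in WT. Slc25a41, a calcium-independent ATP-Mg carrier, had 1, 0, 0 and 0 counts in HET and 2, 5, 2 and 0 counts in WT. These levels are too low for a comparison of the groups.

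Slc25a18, a glutamate carrier best known from brain, had 10, 1, 12 and 8 counts in HET and 2, 24, 5 and 8 counts in WT, which overlap. Slc25a2, an ornithine carrier, had 2 to 11 counts in HET and 5 to 11 counts in WT, and Slc25a43 had 4 to 8 counts in HET and 3 to 9 counts in WT. These 7 members did not pass the filter on low counts, which left 40 members among 14567 genes tested. The fewest counts among those tested were those of Slc25a31, the ADP/ATP carrier of testis, with 0.347 to 1.12 CPM in HET and 0.307 to 0.704 CPM in WT.

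None of the 40 members tested passed the test between HET and WT. With edgeR's quasi-likelihood test the smallest adjusted p of a member was 0.77, and 0 members had an unadjusted p under 0.05 in either direction. Over all genes tested, 0.00686% were called by this test (1 gene, Pkp2), and 2.75% were higher and 3.63% lower at the unadjusted threshold. DESeq2 called 0 members as well, against 0.0895% of the genes to which it gave an adjusted p, and it gave an unadjusted p under 0.05 to 1 member, Slc25a22, lower in HET. Limma-voom with sample weights called 0 members, against 0.00686% of all genes, and gave 0 members an unadjusted p under 0.05. For DESeq2 and limma-voom the share of all genes at the unadjusted threshold was not counted, so nothing is read from those numbers. In 0 of the 40 members did the 4 HET libraries lie wholly above or wholly below the 4 WT libraries, against 1.7% of all genes with HET wholly higher and 2.08% with HET wholly lower.

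The estimates were small and their intervals bound them. Log2 fold changes of HET over WT were -0.30 to 0.29, 31 of the 40 lay within 0.1 of 0, and 37 of the 40 had a 95% interval inside -0.5 to 0.5. The estimate was negative for 13 of the 40 members, against 51.5% of all genes, and the median was 0.02 over the members and -0.0038 over all genes tested. Without WT replicate 3 the median over the members was -0.00039, and with library sizes left unscaled it was -0.02, where the median of all genes was -0.05. The sign of this median therefore depended on 1 library and on the scaling, and no direction is given for the family.

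**Figure D2:**
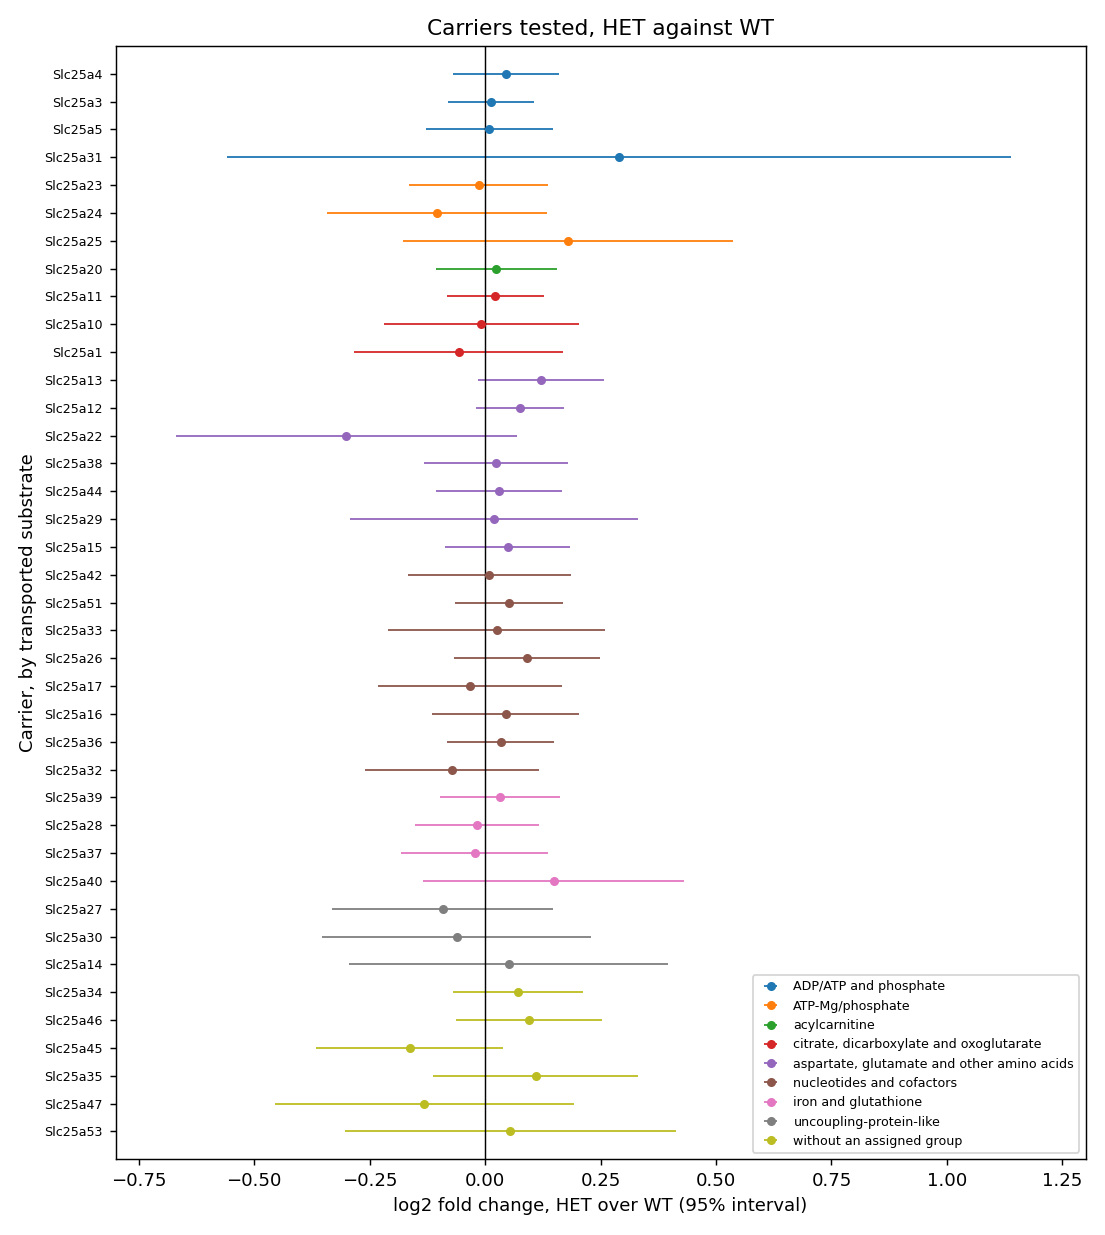
Log2 fold change of HET over WT with its 95% interval for 39 of the 40 carriers tested, grouped and coloured by transported substrate. All intervals drawn include 0, and the widest belongs to Slc25a31, the carrier with the fewest counts among those tested.

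Among the carriers of ATP, ADP and phosphate, 4 of 4 were tested, 0 were called and the median log2 fold change was 0.03. With 0.00686% of all genes called by edgeR, 0 called says little about this group or any group of carriers below. Slc25a4 had 5825, 5650, 5400 and 5499 CPM in the HET libraries, against 5271, 5779, 5031 and 5585 CPM in the WT libraries. The highest library was HET replicate 1 and the lowest was WT replicate 3, and the groups overlapped. The log2 fold change was 0.05 (95% interval -0.07 to 0.16, adjusted p = 0.869), so that under edgeR's model a change of Slc25a4 beyond 0.16 on the log2 scale lay outside the interval. Without WT replicate 3 the estimate was 0.01, without HET replicate 1 it was 0.03 and without WT replicate 2 it was 0.08.

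Slc25a3 had 1651, 1667, 1611 and 1609 CPM in the HET libraries, against 1564, 1693, 1580 and 1642 CPM in the WT libraries. All 4 HET values lay inside the range of the WT values. It varied least of all members tested, with a coefficient of variation of 2.69% over the 8 libraries, and its log2 fold change was 0.01 (95% interval -0.08 to 0.11). Slc25a5 had 226, 221, 214 and 204 CPM in HET, against 212, 206, 202 and 240 CPM in WT, with WT replicate 4 highest and a log2 fold change of 0.01 (95% interval -0.13 to 0.15). Pseudogenes of Slc25a5 exist in the mouse genome, and how reads shared with them were counted is not given in the sources used here.

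Of the calcium-regulated ATP-Mg/phosphate carriers, which adjust the adenine nucleotide pool of the matrix, Slc25a23 was the highest per kb of exon, and it averaged 73.2 ± 5.14 CPM in HET and 74.0 ± 5.83 CPM in WT (SD, n = 4 each). Slc25a24 had 5.99 ± 0.464 CPM in HET and 6.44 ± 0.719 CPM in WT. Slc25a25 varied more, with 14.3, 11.1, 18.2 and 14.2 CPM in HET and 10.5, 13.5, 15.4 and 11.6 CPM in WT. The groups overlapped in all 3, the log2 fold changes were -0.01, -0.10 and 0.18, and 0 of the 3 tested were called. For Slc25a24 the value was -0.04 without WT replicate 1, -0.18 without WT replicate 3 and -0.18 with the first 4 digits of the number in each library's title as covariate.

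The carnitine-acylcarnitine carrier Slc25a20 had 184, 205, 185 and 184 CPM in the HET libraries, against 180, 184, 177 and 204 CPM in the WT libraries. Both groups held 3 libraries at 177 to 185 CPM and 1 library at 204 to 205 CPM, HET replicate 2 and WT replicate 4. The log2 fold change was 0.02 (95% interval -0.11 to 0.16, adjusted p = 0.942). Of the 7 other genes of the carnitine shuttle and its entry into oxidation, 0 were called. Acsl1, which activates long-chain fatty acids, averaged 1152 ± 47.2 CPM in HET and 1066 ± 37.2 CPM in WT, and Cpt1a, an outer-membrane carnitine palmitoyltransferase, averaged 59.7 ± 5.30 CPM in HET and 68.6 ± 8.69 CPM in WT, both with an adjusted p of 0.77 by edgeR.

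**Figure D3:**
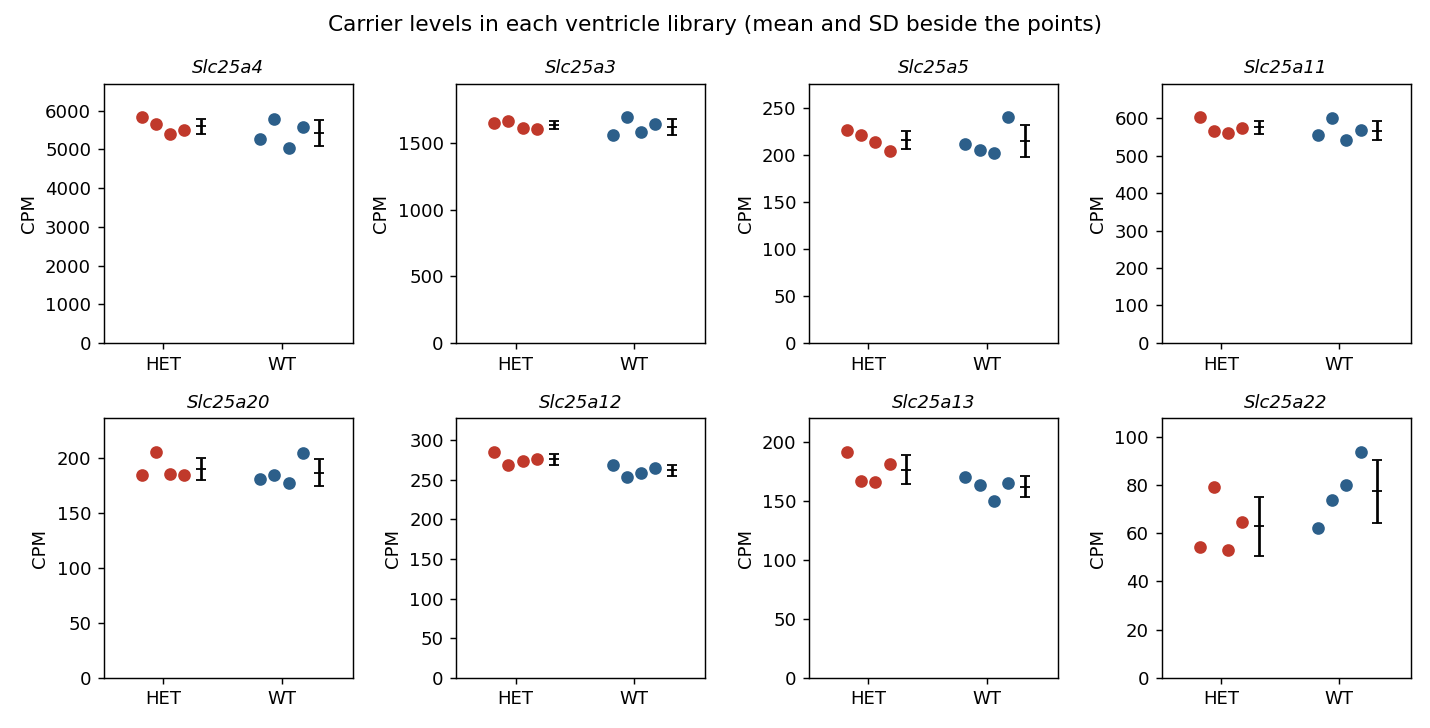
CPM of 8 carriers in each library, HET (red) left of WT (blue), on axes that start at 0, with the mean and SD of each group beside its 4 points. The groups overlap in all 8 panels, and the points spread most in Slc25a22.

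Carriers that serve the malate-aspartate shuttle, which moves reducing equivalents into the matrix, were among the most abundant. Slc25a11 had 603, 567, 561 and 573 CPM in HET, against 556, 602, 542 and 569 CPM in WT, and the log2 fold change was 0.02 (95% interval -0.08 to 0.13). Up to 8.9% of its exon bases overlap exons of Rnf167 on the opposite strand, and the strand setting of the counting is not given in the sources used here. Slc25a12 had 285, 268, 274 and 277 CPM in HET, against 269, 254, 259 and 265 CPM in WT. HET replicate 2 lay just below WT replicate 1, which was the only overlap between the groups. Its log2 fold change was 0.08 (95% interval -0.02 to 0.17, adjusted p = 0.77).

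Slc25a13 had 191, 167, 166 and 181 CPM in HET, against 170, 164, 150 and 165 CPM in WT. Its log2 fold change was 0.12 (95% interval -0.02 to 0.26), the smallest p of any member, and its adjusted p was 0.77. Without HET replicate 1 it was 0.08, and without WT replicate 3 it was also 0.08. Libraries that share title digits, whose meaning the labels do not give, were also compared among themselves. The differences for Slc25a13 were 0.07 (3 HET and 1 WT libraries) and 0.09 (1 HET and 2 WT libraries). Among the 7 other genes of the malate-aspartate and glycerophosphate shuttles 0 were called, and their median log2 fold change was 0.07. Gpd2, the glycerophosphate dehydrogenase of the inner membrane, averaged 17.1 ± 0.606 CPM in HET and 15.7 ± 0.849 CPM in WT. Its adjusted p was 0.77.

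The citrate carrier Slc25a1 lies on chromosome 16 (GRCm38, 17925223 to 17928219, minus strand), 1.65 Mb from Pkp2 on the same chromosome. It had 7.45, 7.33, 6.21 and 7.83 CPM in HET, against 6.75, 7.15, 8.05 and 8.04 CPM in WT, which overlap. Its log2 fold change was -0.06 (95% interval -0.28 to 0.17). The dicarboxylate carrier Slc25a10 averaged 16.5 ± 2.10 CPM in HET and 16.6 ± 1.47 CPM in WT.

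Slc25a22, a glutamate carrier, had the most negative estimate and the largest spread among members at 1 CPM or more. It had 54.4, 79.4, 53.0 and 64.6 CPM in the HET libraries, against 62.2, 73.7, 79.99 and 93.7 CPM in the WT libraries. HET replicate 2 stood among the WT values and WT replicate 1 among the HET values. The coefficient of variation over the 8 libraries was 20.0%, against a median of 7.28% over the 40 members tested. The log2 fold change was -0.30 (95% interval -0.67 to 0.07, adjusted p = 0.77 by edgeR and 0.747 by DESeq2).

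The libraries that share title digits divided Slc25a22 as well. HET replicates 1, 3 and 4 and WT replicate 1 share one set of digits and had 53.0 to 64.6 CPM in HET and 62.2 CPM in WT, a difference of -0.12 in mean log2 CPM. HET replicate 2 and WT replicates 3 and 4 share another and had 79.4 CPM in HET and 79.99 and 93.7 CPM in WT, again a difference of -0.12. With these digits as a covariate the fitted log2 fold change was -0.12, smaller in size than the -0.30 of the fit without them. WT replicate 2 shares its digits with no other library and adds nothing to the difference between HET and WT in the fit with the covariate. The part that the digits play in the result was not tested beyond this fit. Without HET replicate 2 the estimate was -0.43, with an adjusted p of 0.568, and without WT replicate 4 it was -0.20, with an adjusted p of 0.907. Ucp3, a relative of the family chosen here after its values were seen, had 42.9, 158, 57.4 and 100 CPM in HET, against 95.9, 111, 106 and 152 CPM in WT. In both genes HET replicate 2 was the highest HET library and WT replicate 4 the highest WT library.

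The remaining amino acid carriers that were tested varied less than Slc25a22, with Slc25a29 next at a coefficient of variation of 15.1% over all libraries. Slc25a38, which carries glycine, averaged 23.4 ± 1.89 CPM in HET and 23.0 ± 1.23 CPM in WT, and Slc25a44, which carries branched-chain amino acids, averaged 24.0 ± 1.38 CPM in HET and 23.5 ± 1.08 CPM in WT. The ornithine carrier Slc25a15 averaged 17.4 ± 1.02 CPM in HET and 16.8 ± 0.576 CPM in WT. Of the 7 amino acid carriers tested, which include Slc25a12, Slc25a13 and Slc25a22, 0 were called and the median log2 fold change was 0.03.

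All 9 carriers of nucleotides and cofactors were tested and 0 were called, with a median log2 fold change of 0.03. Slc25a42 had 114, 117, 120 and 117 CPM in HET, against 108, 119, 101 and 136 CPM in WT. The HET values lay close together inside the wider WT range, and the log2 fold change was 0.01 (95% interval -0.17 to 0.19). It was -0.05 without WT replicate 3 and 0.09 without WT replicate 4. Slc25a26, which carries S-adenosylmethionine, had 28.3, 28.5, 27.3 and 28.2 CPM in HET, against 29.1, 26.9, 22.9 and 26.5 CPM in WT. WT replicate 3 was its lowest library. The log2 fold change was 0.09 (95% interval -0.07 to 0.25), and it was 0.03 without WT replicate 3 and 0.145 without WT replicate 1. Within the sets of libraries that share title digits it was -0.06 and 0.21. Slc25a33 and Slc25a36, which carry pyrimidine nucleotides, averaged 24.05 and 40.9 CPM in HET, against 23.6 and 39.97 CPM in WT.

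The iron carriers Slc25a28 and Slc25a37, or mitoferrins, and the glutathione carriers Slc25a39 and Slc25a40 were all tested and 0 of the 4 were called. Slc25a39 had 152, 142, 147 and 142 CPM in HET, against 143, 141, 130 and 156 CPM in WT. Slc25a40, at 0.98 CPM per kb against 52.3 CPM per kb for Slc25a39, had 9.17, 6.77, 8.98 and 9.68 CPM in HET, against 8.03, 6.99, 7.10 and 9.12 CPM in WT, and its log2 fold change was 0.15 (95% interval -0.13 to 0.43). It was 0.25 without HET replicate 2, 0.23 without WT replicate 4, 0.09 without HET replicate 4 and -0.01 with title digits as covariate. Slc25a37, which serves haem synthesis in red cell precursors, averaged 21.4 ± 2.02 CPM in HET and 21.7 ± 0.825 CPM in WT. By library, Slc25a37 had 21.9, 24.0, 19.7 and 19.8 CPM in HET, against 20.7, 22.6, 21.3 and 22.1 CPM in WT. Markers of red cells in the same libraries summed to 302 to 391 CPM in HET and 211 to 495 CPM in WT. Among the HET libraries this sum was highest in replicate 2 and lowest in replicate 3. Among the WT libraries it was highest in replicate 3 and lowest in replicate 2. A relation of Slc25a37 to red cell content was not tested.

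Among the uncoupling-protein-like members Slc25a27, Slc25a30 and Slc25a14, which averaged 6.68, 5.01 and 2.08 CPM in HET and 7.12, 5.24 and 2.01 CPM in WT, 0 of 3 were called. Of the 9 members left without a substrate group, 6 were tested and 0 were called. Slc25a34 had 247, 253, 249 and 246 CPM in HET, against 214, 235, 229 and 267 CPM in WT. The HET libraries lay close together inside the WT range, and the log2 fold change was 0.07 (95% interval -0.07 to 0.21). Leaving out WT replicate 1 gave 0.03 (edgeR adjusted p = 0.9), leaving out WT replicate 4 gave 0.14 (adjusted p = 0.907), and title digits as covariate gave 0.12. Slc25a46 had 73.7, 70.5, 75.6 and 71.7 CPM in HET, against 76.5, 59.2, 66.6 and 70.6 CPM in WT, and the log2 fold change was 0.10 (95% interval -0.06 to 0.25). Leaving out WT replicate 2 gave 0.03 (edgeR adjusted p = 0.944), leaving out WT replicate 1 gave 0.16 (adjusted p = 0.563), and title digits as covariate gave -0.01. Slc25a45 had 6.33, 7.30, 6.29 and 6.40 CPM in HET, against 6.66, 7.70, 7.35 and 7.76 CPM in WT, and the log2 fold change was -0.16 (95% interval -0.37 to 0.04, adjusted p = 0.77). Only HET replicate 2 of the 4 HET libraries reached the WT range of Slc25a45. With title digits as covariate the fitted value was -0.06, and within the sets that share digits the differences were -0.07 and -0.05.

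Ratios of related carriers within a library do not depend on how libraries are scaled. Slc25a4 had 25.7, 25.5, 25.2 and 27.0 counts for each count of Slc25a5 in the HET libraries, against 24.9, 28.1, 24.9 and 23.3 in the WT libraries. The difference of 0.04 on the log2 scale gave p = 0.6 in an exact two-sided permutation test over all splits 4 against 4, and 0.75 after Benjamini-Hochberg adjustment over the 5 ratios compared. Per kb of exon, Slc25a4 exceeded Slc25a5 17.9-fold on average over the 8 libraries. Slc25a12 to Slc25a13 gave 1.49, 1.61, 1.65 and 1.53 in HET, against 1.58, 1.55, 1.73 and 1.61 in WT, with p = 0.429 by the exact permutation test (adjusted 0.714). The phosphate carrier to the muscle ADP/ATP carrier, Slc25a3 to Slc25a4, gave 0.284, 0.295, 0.298 and 0.293 in HET, against 0.297, 0.293, 0.314 and 0.294 in WT, with p = 0.4 by the exact permutation test (adjusted 0.714).

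The mitoferrins, Slc25a28 to Slc25a37, gave 1.17 ± 0.0639 in HET and 1.16 ± 0.0237 in WT (SD, n = 4 each), with p = 0.857 by the exact permutation test and the same value after adjustment. Slc25a23 to Slc25a24 gave 12.5, 12.6, 12.7 and 11.2 in HET, against 10.1, 12.7, 12.3 and 11.2 in WT, with p = 0.343 by the exact permutation test (adjusted 0.714). None of the 5 ratios separated the groups. Within the libraries that share title digits, log2 differences were 0.06 and 0.09 for Slc25a4 to Slc25a5, -0.03 and -0.05 for Slc25a12 to Slc25a13, -0.03 and -0.04 for Slc25a3 to Slc25a4, 0.26 and 0.10 for Slc25a23 to Slc25a24, and 0.07 and -0.09 for Slc25a28 to Slc25a37. The mitoferrin ratio thus had opposite signs in the 2 sets.

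**Figure D4:**
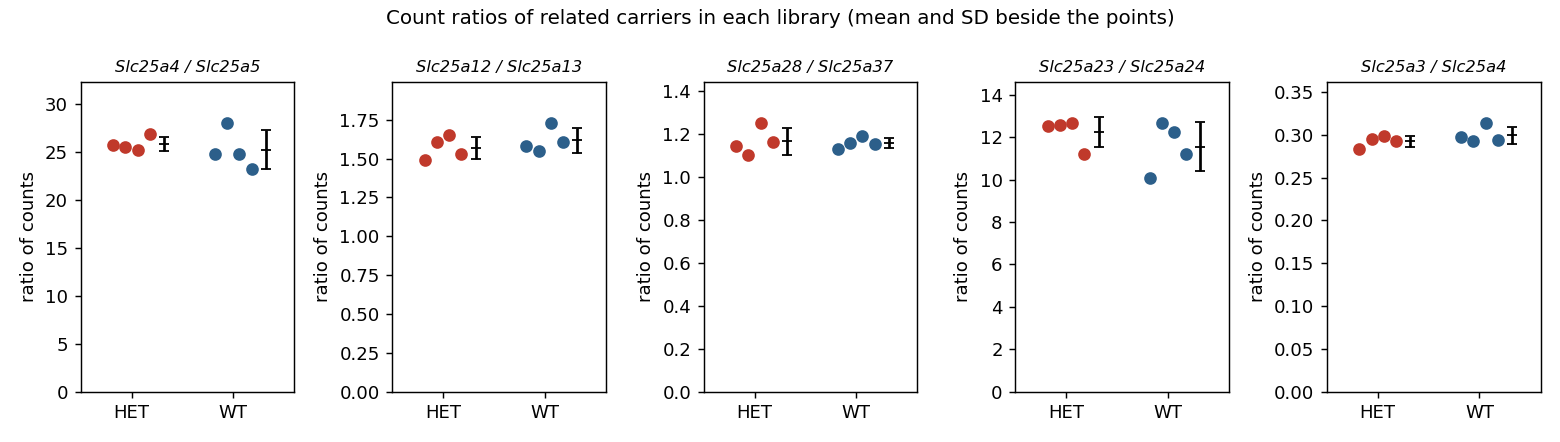
Ratio of the counts of related carriers in each library, HET (red) left of WT (blue), on axes that start at 0, with the mean and SD of each group beside its 4 points. The Slc25a4 to Slc25a5 ratio lies between 23.3 and 28.1 in all 8 libraries, and HET and WT overlap in each of the 5 panels.

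The carriers as a whole also overlapped between the groups. Their summed level was 10162, 9941, 9601 and 9698 CPM in the HET libraries, against 9354, 10049, 9071 and 9937 CPM in the WT libraries. The log2 ratio of the group means was 0.04, and it was 0.01 without WT replicate 3 and -0.01 with library sizes left unscaled. WT replicate 3 had the lowest sum of scaled CPM. As a share of its unscaled counts the members took 0.947%, above 0.943% in HET replicate 3 and 0.944% in WT replicate 1. In scaled CPM, WT replicate 3 was the lowest library for 10 of the 40 members tested (25%), against 14.1% of all genes tested. HET replicate 4 was the lowest for 9 (22.5%, against 10.5% of all genes). WT replicate 4 was the highest library for 10 of the 40 (25%, against 13.2% of all genes) and HET replicate 1 for 8 (20%, against 10.1%). In bulk tissue, fewer cells of a type and less RNA per cell cannot be told apart. In WT replicate 3, macrophage markers summed to the highest value of any library, 178 CPM. The sums were 113 to 132 CPM in the HET libraries and 120 CPM or more in the other WT libraries. The part of cell composition in the lower scaled carrier levels of WT replicate 3 was not tested.

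**Figure D5:**
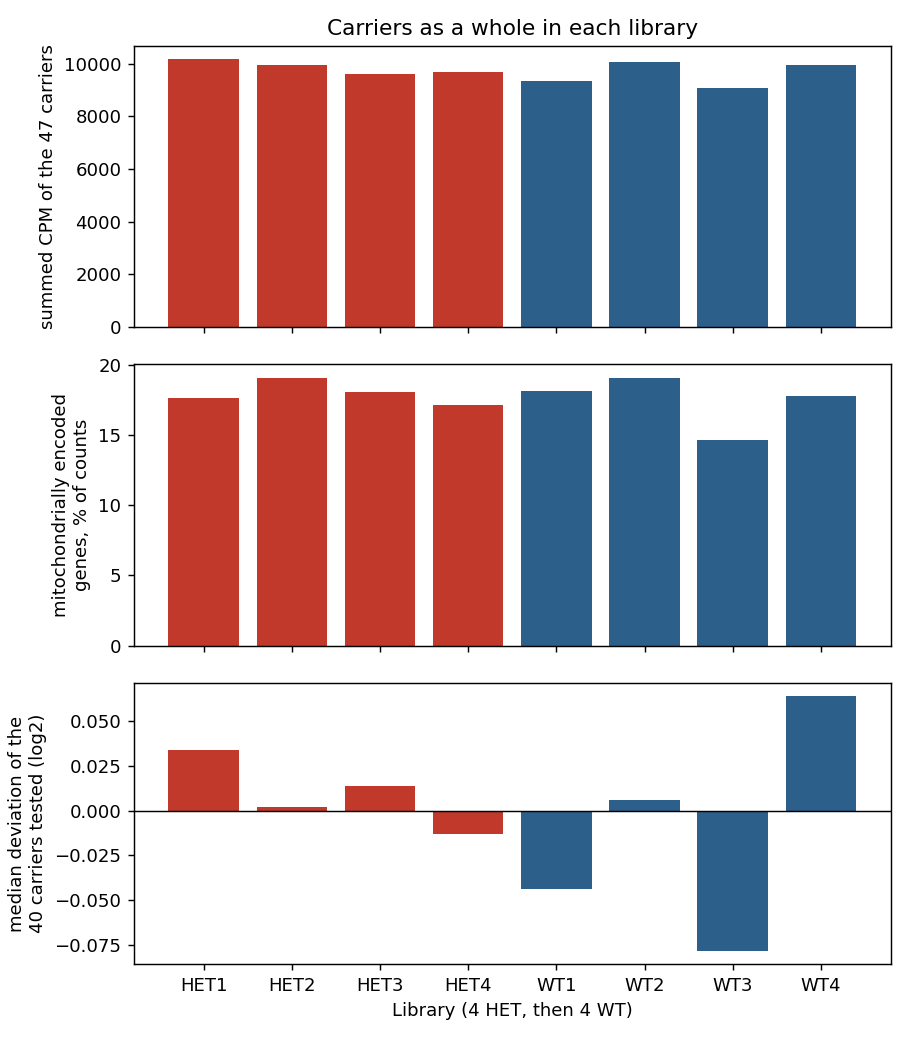
For each library, the summed CPM of the 47 carriers (top), the share of counts from mitochondrially encoded genes (middle) and the median deviation of the 40 carriers tested from their mean over the 8 libraries on the log2 scale (bottom), with the HET libraries (red) left of the WT libraries (blue). WT replicate 3 is lowest in all 3 panels, at 9071 CPM, 14.7% and -0.08. The top and bottom panels use scaled library sizes.

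The spread of the carriers was set beside that of other genes, with no test. Over the 8 libraries the median coefficient of variation was 7.28% for the 40 members tested and 9.57% for all genes tested. Over the 27 members at 10 CPM or more, it was 6.41%, against 6.71% over the 8470 genes at that level. The SD of log2 CPM was lower in HET than in WT for 19 of the 40 members (47.5%), against 59.4% of all genes tested. Without WT replicate 3 these shares were 52.5% and 51.6%. The WT group then held fewer libraries than HET, so the change in these shares cannot be put down to WT replicate 3 alone.

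Genes around the carriers were followed in lists. Of the outer-membrane channels Vdac1, Vdac2 and Vdac3, through which metabolites reach the carriers, 0 were called. Vdac1 had 896, 904, 917 and 914 CPM in HET, against 846, 886, 850 and 823 CPM in WT, without overlap. Its log2 fold change was 0.09, with an adjusted p of 0.77 by edgeR. The 7 pyruvate and serine carriers, which belong to other families, had 0 called genes, 6 negative estimates and a median log2 fold change of -0.10. Of these, Sfxn3 had 13.6, 13.8, 12.4 and 13.4 CPM in HET, against 14.3, 13.96, 13.9 and 16.6 CPM in WT, without overlap. Its log2 fold change was -0.14, with an adjusted p of 0.77 by edgeR. Of all genes tested, 1.7% lay wholly higher and 2.08% wholly lower in HET. Of the 9 genes of the TIM22 pathway, by which carriers enter the inner membrane, 0 were called and the median log2 fold change was 0.01. Of the calcium uniporter genes 0 of 6 were called, and of the tested genes linked to the permeability transition 0 of 4 were called, with medians of 0.04 and -0.01.

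Of 9 regulators of mitochondrial gene expression, 0 were called, and the median log2 fold change was 0.10. Tfam, the transcription factor of mitochondrial DNA, averaged 44.1 ± 1.86 CPM in HET and 41.2 ± 2.52 CPM in WT, and Ppargc1a, a coactivator of mitochondrial genes, averaged 88.8 ± 16.3 CPM in HET and 79.7 ± 9.56 CPM in WT. Among the relatives of the family with other symbols, 0 of 4 tested were called, and Ucp1, the uncoupling protein of brown fat, was at or below 0.102 CPM in every library. In every list the unadjusted threshold of edgeR was passed by at most 1 gene, except for heart muscle markers, where Myh6 and Tnnt2 passed it, both higher in HET. The lists share libraries with the members, and their counts are a description. With 0.00686% of all genes called by edgeR, 0 called in a list says little about its genes.

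Some members lie beside each other or beside genes that could share reads. Slc25a5 and Slc25a43 lie 18.4 kb apart on the X chromosome, Slc25a24 and Slc25a54 6.5 kb apart on chromosome 3, Slc25a23 and Slc25a41 2.1 kb apart on chromosome 17, and Slc25a29 and Slc25a47 0.2 kb apart on chromosome 12. In the first 3 pairs the first member passed the filter on low counts and the second did not. Slc25a29, a carrier of basic amino acids, averaged 9.73 ± 1.75 CPM in HET and 9.61 ± 1.37 CPM in WT, and Slc25a47, best known from liver, averaged 4.69 ± 0.442 CPM in HET and 5.14 ± 1.04 CPM in WT. Exons of 14 members overlap exons of another gene in GENCODE release M21, mostly on the opposite strand. The largest share was in Slc25a35, where 31.3% of exon bases overlap Rangrf, followed by 14.9% in Slc25a33 with a predicted gene. Slc25a35 averaged 9.11 ± 1.24 CPM in HET and 8.44 ± 0.201 CPM in WT. How reads in the overlap were counted is not given in the sources used here.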

How the data were processed

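The authors deposited whole-number read counts per Ensembl gene, not normalized, for 8 libraries of ventricular RNA. Trizol extraction and a stranded TruSeq poly(A) kit are given per the labels' protocols. The tools named, per the submitters' processing notes, are STAR 2.4.2a and HTSeq 0.6.1, with the build GRCm38/mm10. The annotation release and strand setting are not given in the sources used here. Symbols, positions and lengths came from GENCODE release M21.

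Counts were fitted with edgeR 4.0.16 (filterByExpr, TMM scaling, quasi-likelihood test, Benjamini-Hochberg adjustment over 14567 genes, threshold 0.05). CPM use TMM-scaled library sizes, and CPM per kb divides by the union of exons. Ratios were compared with exact permutation tests. The scripts were tested on simulated data. Alternatives were other scalings, filters, DESeq2 1.42.0, limma-voom 3.58.1, title digits as covariate and leaving out each library. Replicate numbers follow accession order and pair nothing. Within groups, pairs of libraries differed by a mean chi-square per gene of 11.9 or more, so none was counted as the same library sequenced again. This measure cannot tell whether libraries came from the same animal.

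The members and lists were chosen with earlier results of these data known. Named members are the 10 highest by level per kb, the 8 of smallest p, those in the 5 ratios, Slc25a1, Slc25a20 and the one of highest coefficient of variation at 1 CPM or more; others are given with their role group and were chosen after their values were seen. A member is counted in the totals but is not reported here.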

Additional observations from a re-analysis of the deposited data

Results flagged for a closer look

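Within groups of 4, a library was singled out where its gap to the nearest other library took up nearly the whole range of the group. Of 52 groups of values examined, 4 were singled out, and chance does so for about 1 in 20 groups. Slc25a20 had 205 CPM in HET replicate 2, against 184 to 185 CPM in the other HET libraries. Slc25a23 had 81.0 CPM in HET replicate 1, against 70.6 to 70.7 CPM in the other HET libraries. Slc25a45 had 7.30 CPM in HET replicate 2, against 6.29 to 6.40 CPM in the other HET libraries. The count ratio of Slc25a23 to Slc25a24 was 11.2 in HET replicate 4, against 12.5 to 12.7 in the other HET libraries. The causes were not tested.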

How the results depend on the processing

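No member was called by edgeR, DESeq2 or limma-voom under any of the 17 alternatives. Members at an unadjusted p under 0.05 numbered 1 (lower) by DESeq2, and when 1 library was left out 0 to 2 in the higher and 0 to 2 in the lower direction. The share of all genes under that threshold was not counted in these fits, so nothing about the members is read from these numbers. No setting moved the summed level or the members' median beyond the spread between libraries, and the 10 members of highest level per kb were the same 10 with each library left out, in either group alone and with the other length. No paired analysis was possible because replicate numbers follow accession order and pair nothing. The title digits, whose meaning is not given, entered as a covariate instead. In that fit WT replicate 2, alone with its digits, adds nothing to the difference between the groups.

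Estimates near 0 changed sign, and the cause was not tested. With upper-quartile scaling the log2 fold change of HET over WT was -0.00349 for Slc25a3, -0.00759 for Slc25a5 and -0.00883 for Slc25a42. With library size alone, where all genes had a median of -0.0466, it was -0.029 for Slc25a3, -0.0333 for Slc25a5, -0.0199 for Slc25a11, -0.0173 for Slc25a20, -0.00943 for Slc25a39 and -0.0319 for Slc25a42. With limma-voom it was -0.0207 for Slc25a5, -0.00258 for Slc25a20 and -0.02 for Slc25a42. With title digits as covariate it was 0.0127 for Slc25a23, 0.0513 for Slc25a28, 0.0578 for Slc25a37, -0.00791 for Slc25a40 and -0.00995 for Slc25a46.

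Leaving out 1 library gave log2 fold changes of -0.102 to 0.00809 for Slc25a1, -0.000747 to 0.0354 for Slc25a3, -0.0208 to 0.0664 for Slc25a5, -0.00158 to 0.0519 for Slc25a11, -0.0144 to 0.0706 for Slc25a20 and -0.0653 to 0.0353 for Slc25a23. The ranges were -0.0485 to 0.019 for Slc25a28, -0.0816 to 0.0152 for Slc25a37, -0.0104 to 0.0793 for Slc25a39 and -0.0519 to 0.0939 for Slc25a42. The log2 difference in the ratio of Slc25a4 to Slc25a5 was -0.00218 to 0.0883, and without WT replicate 2 its exact permutation test gave p = 0.0286, the smallest that 4 against 3 libraries allow, and 0.143 after adjustment over the 5 ratios. That of Slc25a28 to Slc25a37 was -0.0276 to 0.0342. Within the sets of libraries that share title digits it was 0.0668 and -0.0888, and that of Slc25a23 to Slc25a24 was 0.265 in the set with 3 HET libraries.

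With 4 libraries a group and a common coefficient of biological variation of 0.143, the intervals of 37 of the 40 members tested lay inside -0.5 to 0.5 on the log2 scale. The 7 members under the filter were not compared.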
